A study of Caenorhabditis elegans with 83 samples.

Results

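The large subunit of the cytosolic ribosome is built on ribosomal proteins whose genes were followed here in Caenorhabditis elegans worms depleted of the cohesin subunit SMC-3 or of the cohesin release factor WAPL-1. Genes were taken by sequence name from a list of 45 large subunit genes. Both RNA comparison tables hold 44 of the 45, out of 18607 genes that appear in either table (M01F1.2, or rpl-13A, was not analysed here). Names are those RefSeq gives to the sequence names, so that F13B10.2 is rpl-3, and all 44 carry an rpl or rplp symbol.

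The groups compared were L2/L3 larvae of 3 strains treated with 1 mM auxin, a hormone that makes a degron-tagged protein degrade. SMC-3 was depleted in strain JK05, WAPL-1 was depleted in strain JK06, and CA1200 was the auxin-treated control strain. A further strain, HW04, was sampled with 1 h of auxin and without auxin, and the labels do not state which protein is marked for degradation in it. All larvae were grown for 24 h at 22 °C from starved L1s. ChIP-seq of SMC-3 and of PQN-85, the worm counterpart of the cohesin loader NIPBL, was done after 1 h of auxin. Poly(A) RNA-seq was done after 4 h in JK05, JK06 and CA1200, with 2 libraries each. After auxin, SMC-3 ChIP-seq had 4 libraries in JK06 and 2 in each other strain, and PQN-85 ChIP-seq had 2 in each strain. The depletion strains were set against CA1200 and not against their own untreated worms, so depletion and strain cannot be told apart. The tissue was the whole worm, in which fewer cells of a type and less RNA per cell cannot be told apart either.

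The large ribosomal subunit joins amino acids at its peptidyl transferase centre and passes the growing chain out through an exit tunnel. Its proteins are needed in nearly equal numbers, and their mRNAs are among the most abundant in growing animals. Cohesin is a ring of SMC-1, SMC-3 and a kleisin that is loaded on DNA by PQN-85 with MAU-2, extrudes chromatin loops, and is released by WAPL-1.

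RNA values came as each depletion strain over the control in the authors' deposited tables, with a log2 fold change, its standard error (SE) and p-values of the authors' DESeq2 fit. No value per library was given, so depth is unknown and the deposited SE is the measure of precision. Peak values came from lists by the authors, with a score (10 times the −log10 q) and a fold enrichment over input per peak. Scores and fold enrichments of different lists are printed beside each other, but their differences were not tested. The combined sets held 361 SMC-3 peaks in SMC-3 depletion, 6107 in WAPL-1 depletion and 6290 in control, and 5018, 6713 and 5385 PQN-85 peaks in the same order of conditions. Each combined set is a single list, so counts from it have no replicate error. The RNA of smc-3 had a log2 fold change of -0.23 (SE 0.26, adjusted p 1.00) in SMC-3 depletion, and that of wapl-1 one of 0.22 (SE 0.41, adjusted p 1.0) in WAPL-1 depletion, both from the authors' deposited tables. The degron acts on the protein, so these RNA values do not check the labels.

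In SMC-3 depletion all 44 large subunit genes had less RNA than in control by the fitted value, and none passed the authors' test. Across the 18128 genes of the authors' deposited table, 50.7% had a log2 fold change below 0. At an adjusted p under 0.05 in the authors' DESeq2 fit, 0 of 44 genes were called lower, against a background of 0.464% of 15316 genes with an adjusted p (0.686% in either direction). At an unadjusted p under 0.05, 33 of 44 were below 0 and passed, against 3.66% of all genes for the lower direction. The median log2 fold change of the 44 was -0.62 in the authors' deposited table, which is 0.651 of the control level, and the values ran between -0.89 and -0.38. The median over all genes was -0.01. The median SE of a member was 0.28 and the SD of the 44 log2 fold changes was 0.10. The members share every library, so their errors are not independent, and these values do not show whether members differ from each other.

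**Figure D1:**
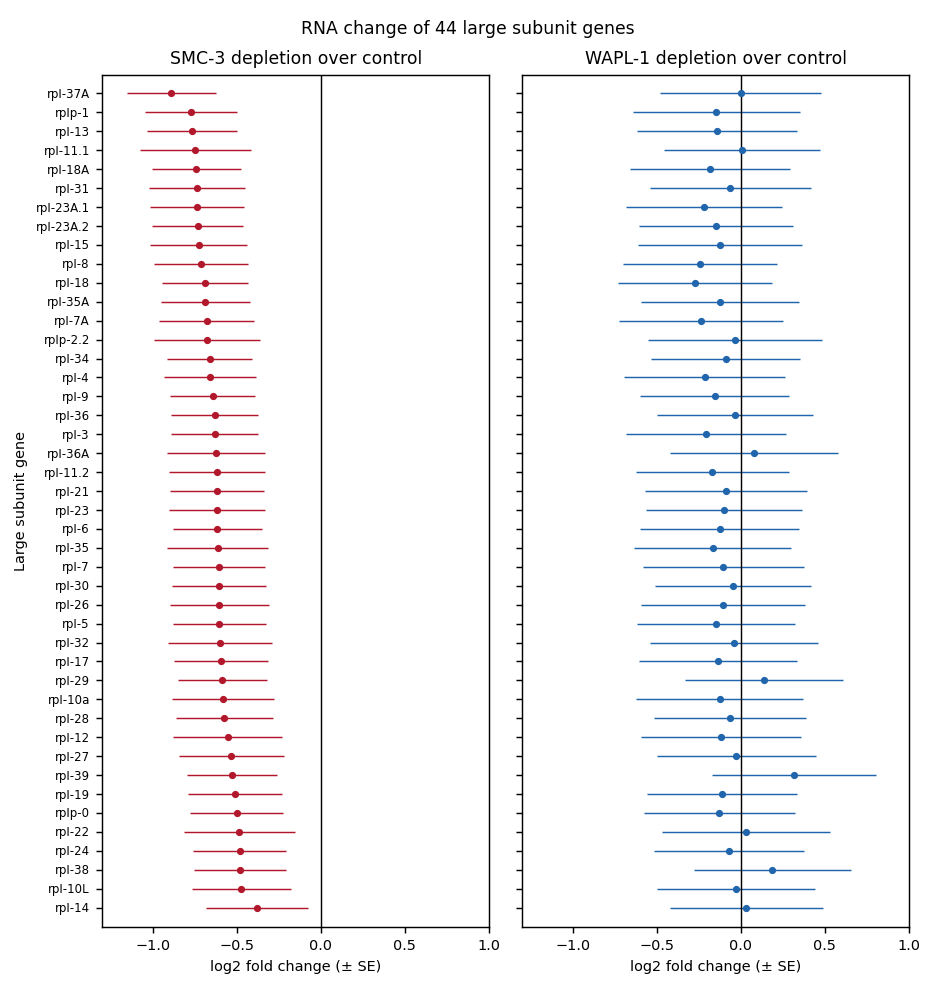
RNA change of each of the 44 large subunit genes in SMC-3 depletion (left) and WAPL-1 depletion (right), both over the same control libraries; points are log2 fold changes of the authors' deposited tables and bars are their SE. On the left all points lie between -0.89 and -0.38, and on the right they lie on both sides of 0, between -0.27 and 0.32, with longer bars.

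The stalk is the flexible arm that recruits the elongation factors. In the authors' deposited table of SMC-3 depletion its genes had log2 fold changes of -0.77 for rplp-1 (Y37E3.7, SE 0.28, adjusted p 0.244), -0.68 for rplp-2.2, -0.56 for rpl-12, which forms the base of the stalk, and -0.50 for rplp-0, the anchor of the P proteins. All 4 were below 0, with 2 of 4 at an unadjusted p under 0.05. The protein of rpl-10a belongs to the L1 arm, which guides spent tRNA off the ribosome, and its log2 fold change in the authors' deposited table was -0.58 (SE 0.30, adjusted p 0.741).

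At the catalytic core sit the products of rpl-3, rpl-8 (B0250.1) and rpl-10L (F10B5.1), which reach towards the peptidyl transferase centre. Their log2 fold changes in the authors' deposited table of SMC-3 depletion were -0.63, -0.72 and -0.47, in that order, with SEs of 0.26, 0.28 and 0.30. The adjusted p was 0.426 for rpl-3, 0.354 for rpl-8 and 0.965 for rpl-10L in the authors' deposited table, so rpl-10L, although among the most abundant, was also among the 5 members nearest to 0. The proteins of rpl-5 and rpl-11 bring the 5S rRNA into the subunit. By the authors' deposited table rpl-5 had a log2 fold change of -0.60 (SE 0.28), rpl-11.1 one of -0.75 (SE 0.33) and rpl-11.2 one of -0.62 (SE 0.29).

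The exit tunnel is lined by the products of rpl-4, rpl-17 and rpl-39, whose log2 fold changes in the authors' deposited table of SMC-3 depletion were -0.66, -0.59 and -0.53. Around its outer rim, where chaperones and the signal recognition particle dock, the 6 members ran from -0.74 to -0.51 in the authors' deposited table, with 5 of 6 at an unadjusted p under 0.05. They included rpl-31 (-0.74), the paralogues rpl-23A.1 (-0.73, SE 0.28) and rpl-23A.2 (-0.73, SE 0.27), and rpl-19 (-0.51). The medians of the roles with 3 or more members lay between -0.67 for the tunnel rim and -0.59 for the exit tunnel, and differences between roles were not tested.

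The lowest value of all belonged to rpl-37A (Y48B6A.2), which encodes a zinc-binding protein of the subunit. Its log2 fold change in the authors' deposited table was -0.89 (SE 0.27, unadjusted p 0.000827, adjusted p 0.0822), which is 0.54 of the control level. The next lowest in the authors' deposited table after rplp-1 were rpl-13 (C32E8.2) at -0.76, rpl-11.1 at -0.75 and rpl-18A at -0.74. Nearest to 0 in the authors' deposited table was rpl-14 at -0.38 (SE 0.30, unadjusted p 0.208). Then came rpl-10L, rpl-38 at -0.48, rpl-24, whose protein contacts the small subunit, at -0.48, and rpl-22 at -0.48 in the authors' deposited table. In mice, Rpl38 is known for its part in translating Hox mRNAs. The difference between rpl-37A and rpl-14, the ends of the ordered 44, was not tested.

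The members are highly expressed, and other genes of that level also had values below 0. Mean normalized counts over the 4 libraries of the SMC-3 comparison ran between 3620.2 for rpl-11.1 and 75584.1 for rpl-3 in the authors' deposited table, and 42 of 44 members were at 10000 or more. Together the 44 genes held 7.45% of the summed mean counts of that table. The other 239 genes at 10000 or more had a median log2 fold change of -0.39 in the authors' deposited table, 82.4% of them below 0 and 27.2% at an unadjusted p under 0.05. The 3186 other genes at 1000 or more had a median of -0.05 in the authors' deposited table. The members' median minus that of other genes at 10000 or more was -0.23, and minus that of genes at 1000 or more it was -0.57. What high level contributed to the members' values was not tested.

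**Figure D2:**
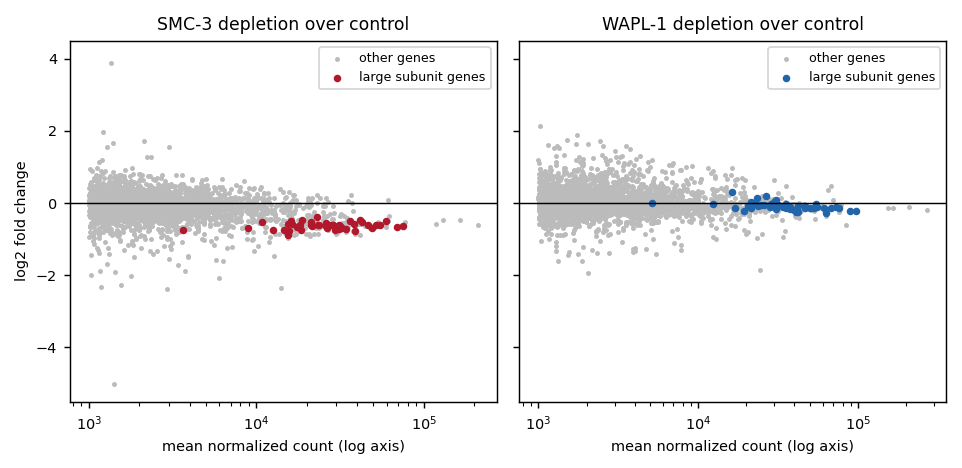
Mean normalized count (log axis) against log2 fold change in the authors' deposited tables for SMC-3 depletion (left) and WAPL-1 depletion (right), for genes at 1000 or more; large subunit genes are coloured and all other genes grey. In SMC-3 depletion the grey points also sink below 0 towards the right, where the 239 other genes at 10000 or more have a median of -0.39 and the members one of -0.62.

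Levels between members were compared per kilobase of gene span, introns included. In the authors' deposited table of SMC-3 depletion rpl-36 stood highest with a mean normalized count of 60343.1 per kb, followed by rplp-0 with 52526.0, rpl-4 with 51685.8, rpl-10L with 50980.0 and rpl-5 with 45735.1. The lowest were rpl-11.1 with 4807.7, rplp-2.2 with 10261.0 and rpl-23A.2 with 21401.8 per kb in the authors' deposited table. The paralogue rpl-11.2 had 33132.8 per kb there, so the pair differed widely in level. Reads that match both copies of a pair cannot be placed with certainty, and the likeness of the copies was not examined here. The values of rpl-11.1 and rpl-11.2, and of rpl-23A.1 and rpl-23A.2, are therefore uncertain.

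The partner subunit had values like those of the large subunit. All 31 small subunit genes were below 0 in the authors' deposited table of SMC-3 depletion, with a median log2 fold change of -0.61 and 21 of 31 at an unadjusted p under 0.05. The 6 elongation factor genes had a median of -0.47 in the authors' deposited table, all 6 below 0. The 41 genes of the mitochondrial large subunit, which are expressed far lower, had a median of -0.30 with 38 of 41 below 0 in the authors' deposited table. The 12 ribosome biogenesis genes had one of -0.22 and the 31 initiation factor genes one of -0.09 in the authors' deposited table. No gene of these lists was called at an adjusted p under 0.05.

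Marker genes of some tissues lay below 0 with the members in SMC-3 depletion, and those of others did not. Of 18 germline markers, 16 were below 0 in the authors' deposited table (median -0.49, between -0.72 and 1.65), as were all 8 body muscle markers (median -0.40) and 9 of 12 intestine markers (median -0.32). Of 8 moult genes, 7 were above 0 (median 0.39), as were 8 of 10 epidermis markers (median 0.13) in the authors' deposited table. The pharynx and neuron markers lay on both sides of 0, with 4 of 7 (median -0.02) and 4 of 9 (median 0.04) below it in the authors' deposited table. No marker was called, and the part of tissue make-up or larval age in the members' values was not tested.

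In WAPL-1 depletion the large subunit genes had values near 0, and none passed the authors' test. Of 44 members 0 were called at an adjusted p under 0.05 in the authors' DESeq2 fit, with a background of 0.0% of 18308 genes, and 0 of 44 had an unadjusted p under 0.05 against 0.399% of all genes. The median log2 fold change was -0.11 in the authors' deposited table, 0.927 of the control level, and 36 of 44 were below 0 against 44.2% of all genes. The median SE was 0.47, against 0.28 in SMC-3 depletion, so only larger changes could be told from 0 here. The 292 other genes at a mean normalized count of 10000 or more had a median of -0.08 in the authors' deposited table. Both comparisons used the same 2 control libraries, so a likeness between them is no independent result.

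The lowest members in WAPL-1 depletion were rpl-18 at -0.27 (SE 0.46), rpl-8 at -0.24, rpl-7A at -0.24, rpl-23A.1 and rpl-4 at -0.22 each, rpl-3 at -0.21, rpl-18A at -0.18 and rpl-11.2 at -0.17, on the log2 scale of the authors' deposited table. The tunnel gene rpl-39 was highest at 0.32 (SE 0.49, unadjusted p 0.519), then rpl-38 at 0.19, rpl-29 at 0.14, rpl-36A at 0.08 and rpl-14 at 0.03 in the authors' deposited table. The 95% interval of rpl-39, taken from the deposited SE, reached from -0.65 to 1.28. For rpl-37A, the lowest gene in SMC-3 depletion, the log2 fold change in the authors' deposited table of WAPL-1 depletion was 0.00 (SE 0.48).

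Most starts of large subunit genes carried a peak of cohesin and of its loader, and SMC-3 depletion left few of the SMC-3 peaks. A gene was counted when a peak summit lay within 500 bp of its annotated start on either side. SMC-3 summits lay there at 5 of 44 members in SMC-3 depletion (background 0.548% of 18607 genes), at 38 in WAPL-1 depletion (background 17.1%) and at 38 in control (background 14.3%). PQN-85 summits lay there at 34 members in SMC-3 depletion (background 11.4%), at 39 in WAPL-1 depletion (background 14.1%) and at 34 in control (background 12.0%). The member shares were 11.4%, 86.4% and 86.4% for SMC-3, and 77.3%, 88.6% and 77.3% for PQN-85, in the same order. Other genes with a mean count of at least 10000 had SMC-3 summits at 1.67%, 48.1% and 48.5% of their starts and PQN-85 summits at 48.1%, 56.5% and 45.6%. In control 26 of 31 small subunit genes had an SMC-3 summit and 25 a PQN-85 summit.

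**Figure D3:**
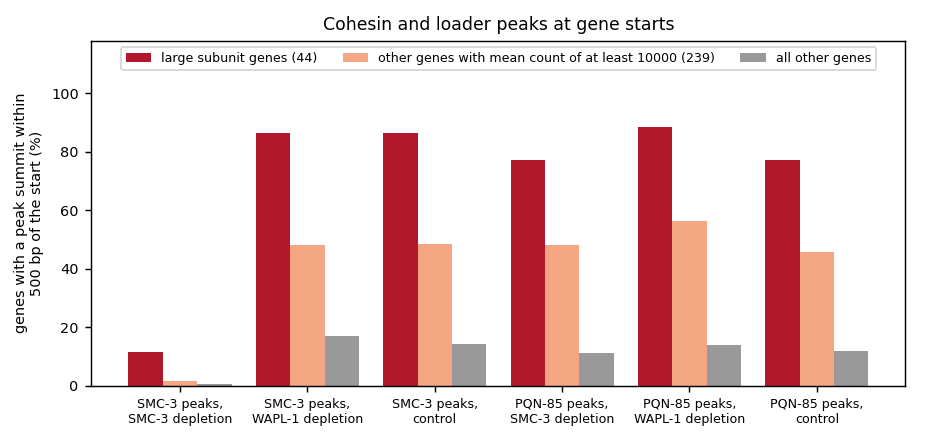
Share of gene starts with a peak summit within 500 bp in each of the 6 combined peak sets, for the 44 large subunit genes, 239 other genes at a mean normalized count of 10000 or more, and all other genes. The members' bars stand at 11.4% for SMC-3 peaks in SMC-3 depletion and between 77.3% and 88.6% in the other 5 sets.

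The same loci carried both proteins. In control 33 members had both an SMC-3 and a PQN-85 summit, and these 33 also had PQN-85 summits in all 3 sets and an SMC-3 summit in WAPL-1 depletion. Their SMC-3 and PQN-85 summits lay a median of 8 bp apart in control, and between 0 and 58 bp. The 1701 other genes with both summits in control had a median of 19 bp. In WAPL-1 depletion the median was 16 bp both for 38 members and for 2002 other genes. Within the control lists the members' peaks were strong ones: their median score was 517.5 for SMC-3, against 220 over all peaks, and 564 for PQN-85, against 263. Their median fold enrichment was 3.01 for SMC-3, against 2.42 over the list, and 3.42 for PQN-85, against 2.83.

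The SMC-3 peaks that were left in SMC-3 depletion stood at rpl-3, rpl-7A, rpl-15, rpl-18A and rpl-35. rpl-3 carried a peak at III:3867214-3867789 with a score of 394 and a fold enrichment of 2.69 in SMC-3 depletion, 599 and 2.43 in WAPL-1 depletion, and 1316 and 4.09 in control. rpl-15 (K11H12.2) had a peak at IV:654736-655189 in SMC-3 depletion, with a fold enrichment of 2.34, against 2.55 in WAPL-1 depletion and 4.11 in control. rpl-35, at the tunnel rim, had fold enrichments of 2.24, 2.41 and 3.72 in the same order, rpl-7A had 2.68, 2.58 and 3.93, and rpl-18A had 2.37, 2.36 and 3.51. The median fold enrichment over a whole list was 2.31 in SMC-3 depletion, 2.1 in WAPL-1 depletion and 2.42 in control, and over the members with a peak it was 2.37, 2.33 and 3.01. Differences between lists in score or fold enrichment were not tested and are not read as changes in binding, since the lists may differ in depth and no error is known. In control rpl-3, rpl-15 and rpl-35 had the highest SMC-3 scores of all members. rpl-23, next in control with a score of 976, had no peak within 500 bp in SMC-3 depletion, and the nearest summit was 27194 bp away. The coordinates of SMC-3 peaks are on ce10, the build the submitters' processing notes state for these sets.

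Those 5 genes also had high PQN-85 scores. In the control PQN-85 set rpl-35 scored 1515, rpl-15 1467, rpl-3 1431 and rpl-18A 1367, the highest of the members, followed by rpl-12 with 1137 and rpl-7A with 1068. In SMC-3 depletion the PQN-85 scores were 1189 for rpl-35, 1115 for rpl-15, 1342 for rpl-3, 1364 for rpl-18A, 1084 for rpl-12 and 918 for rpl-7A. Whether the PQN-85 signal changed was not tested, since scores move with the depth of the libraries.

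**Figure D4:**
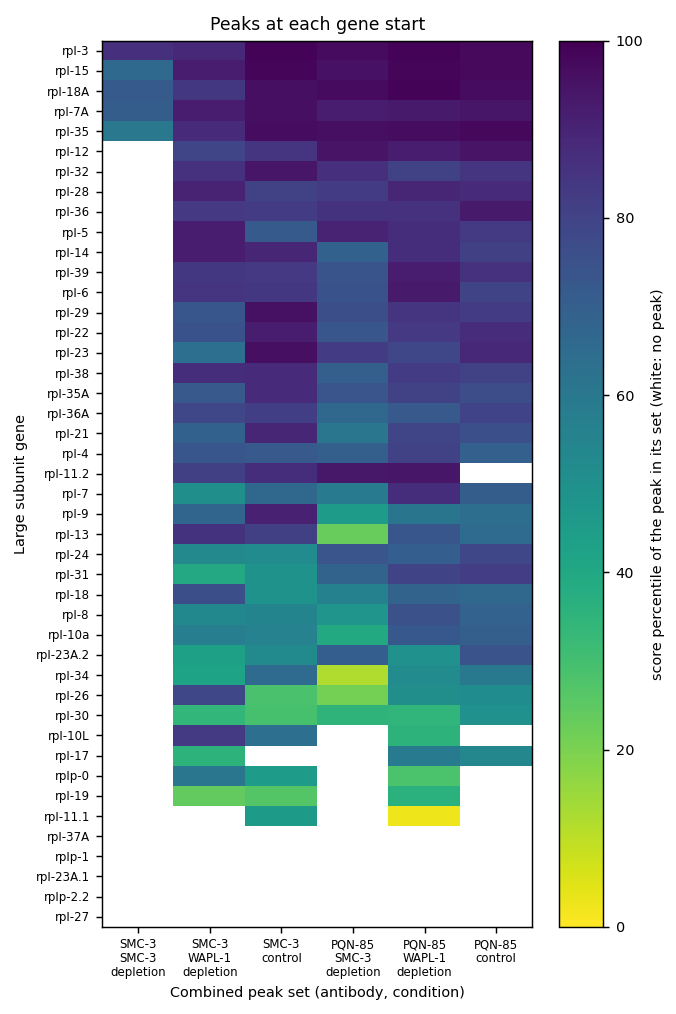
Peaks at the start of each of the 44 large subunit genes (rows) in the 6 combined sets (columns), shaded by the percentile of the peak's score within its own set; white means no summit within 500 bp. Only rpl-3, rpl-15, rpl-18A, rpl-7A and rpl-35 are filled in all 6 columns, and the 5 rows at the bottom are white throughout.

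WAPL-1 depletion and control had nearly the same members in their SMC-3 sets, 37 in both. Of other genes, 2221 had an SMC-3 summit in both, 917 in WAPL-1 depletion alone and 402 in control alone. rpl-17 had an SMC-3 summit in WAPL-1 depletion alone, with a score of 209, and rpl-11.1 had one in control alone, with a score of 197. For PQN-85, 5 members had a summit in WAPL-1 depletion and not in control, and none the reverse. The WAPL-1 depletion list is the longer one, and over other genes 759 had a PQN-85 summit in WAPL-1 depletion alone and 373 in control alone. Of genes without a PQN-85 summit in control, 50.0% of 10 members and 4.64% of 16373 other genes had one in WAPL-1 depletion. The count also rose among the 239 other genes with a mean count of at least 10000. PQN-85 summits lay at 109 of them in control and at 135 in WAPL-1 depletion. How many of them had a summit in WAPL-1 depletion alone is not given here. The part of list length in the members' count was not tested. The 5 members were rpl-11.2 (score 1116), rpl-19 (244), rpl-10L (240), rplp-0 (207) and rpl-11.1 (86), and in control each of these 5 had an SMC-3 summit without a PQN-85 one. rpl-11.2 also had a PQN-85 score of 1004 in SMC-3 depletion, while the nearest PQN-85 summit of the control set lay 7663 bp upstream with a score of 37. rpl-17 had a PQN-85 summit in control, with a score of 285, and none in SMC-3 depletion. The single SMC-3 lists of WAPL-1 depletion replicates 3 and 4 had summits at 39 and 38 members (backgrounds 20.9% and 17.6%), and the PQN-85 list called on averaged libraries at 40 (background 22.1%).

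At rpl-23A.1, rpl-27, rpl-37A, rplp-1 and rplp-2.2 none of the 6 combined sets had a summit within 500 bp. The nearest control SMC-3 summits lay 3094 bp upstream of rpl-23A.1, 720 bp upstream of rpl-37A, 1345 bp upstream of rplp-1, 13795 bp upstream of rplp-2.2 and 699 bp downstream of the start of rpl-27. The summit near rpl-27 had a score of 1582 and lies past the end of that 560 bp gene. Of these 5 genes 3 start close behind another gene on their strand, with gaps of 95 bp at rpl-23A.1, 116 bp at rpl-27 and 91 bp at rplp-1, and 6 of the 44 members have such a gap of under 500 bp. rpl-19, with a gap of 132 bp, was the one member whose SMC-3 summit lay downstream of the start, at 341 bp in control.

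Most summits lay upstream of the gene start, at members as at other genes, and the members' median summit was the farther out. In the SMC-3 sets 5 of 5, 37 of 38 and 37 of 38 summits were upstream in SMC-3 depletion, WAPL-1 depletion and control, at medians of -311, -289 and -284 bp, against -165, -161 and -162 bp for other genes with a summit in the window. For PQN-85 the counts were 34 of 34, 38 of 39 and 34 of 34 in the same order, at medians of -279.5, -275 and -273 bp, against -174, -172 and -174 bp. Of other genes with a summit in the window, 83.5%, 89.2% and 86.8% had it upstream in the SMC-3 sets and between 89.1% and 90.3% in the PQN-85 sets. A different gene's start lay on the opposite strand within 1000 bp upstream of 29 of the 44 members, and in the control SMC-3 set the summit was nearest to the member's own start in 23 of 38 cases. Many of these peaks thus stand in upstream regions shared with a neighbour and cannot be assigned to the ribosomal gene alone. At rpl-24, for instance, the divergent neighbour is the small subunit gene rps-10, whose start is 214 bp away, and the control SMC-3 summit lay 96 bp upstream of rpl-24. Differences in distance were not tested, and no source used here names the build of the gene positions.

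**Figure D5:**
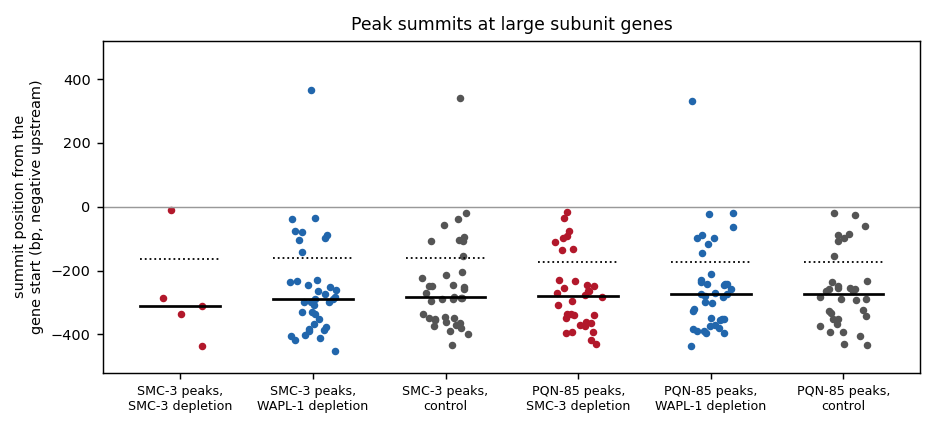
Position of each peak summit relative to the start of its large subunit gene (bp, negative upstream) in the 6 combined sets; each point is a gene, solid bars are the members' medians and dotted bars the medians over all other genes. The members' medians lie between -311 and -273 bp and those of other genes between -174 and -161 bp.

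RNA values of members with and without a peak overlapped. In SMC-3 depletion the 38 members with a control SMC-3 summit had a median log2 fold change of -0.62 (between -0.76 and -0.38), computed from the authors' deposited table, and the 6 without one had a median of -0.71 (between -0.89 and -0.53). Members whose SMC-3 peak was left in SMC-3 depletion had a median of -0.68 in the authors' deposited table, and the other 39 had -0.62. Over the 38 members with a peak, the control SMC-3 score and the log2 fold change of the authors' deposited table of SMC-3 depletion had a Pearson r of -0.07 and a Spearman rho of -0.05, given as a description over genes that share libraries. The 2 genes with the lowest RNA values, rpl-37A and rplp-1, are both among the 5 with no peak within 500 bp, a coincidence that was not tested. At rpl-37A the nearest control summits lay 720 bp (SMC-3) and 741 bp (PQN-85) upstream, so its place among the 5 depends on the window.

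Strain HW04 gave counts in single libraries with and without 1 h of auxin. The peak names inside its 4 SMC-3 lists state the auxin condition opposite to the labels, whereas the names of its PQN-85 and H4K20me1 lists match them, and groups follow the labels here. PQN-85 summits lay at the starts of 25 and 5 members in the auxin libraries (backgrounds 7.8% and 1.71%), against 35 and 38 in the libraries without auxin (backgrounds 12.3% and 22.5%). The means were 15 ± 14.1 with auxin and 36.5 ± 2.12 without (SD, n = 2 each), and the groups did not overlap. The two-sided exact permutation p was 0.333, the smallest that 2 against 2 libraries can give. The difference of -21.5 members rests on uneven replicates: it was -33 without replicate 1 and -10 without replicate 2. The auxin lists were also shorter, with 4070 and 1296 PQN-85 peaks against 6553 and 12367 without auxin.

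The 5 members with a PQN-85 summit in both HW04 auxin libraries were rpl-3, rpl-7A, rpl-15, rpl-18A and rpl-35, the ones at which an SMC-3 peak was left in SMC-3 depletion. The number of other genes with this overlap is not given here. Among members, auxin replicate 2, with 1296 peaks, had summits at these 5 alone, so that library sets the list. For rpl-3 the PQN-85 scores were 561 and 207 with auxin, against 1549 and 1438 without. For rpl-15 they were 644 and 194 with auxin, against 1407 and 1529 without, and for rpl-7A 324 and 69 with auxin, against 1049 and 1038 without. Scores move with the depth of the libraries, so their differences between lists were not tested. The 5 members had 5 of the 6 highest PQN-85 scores among members in the combined control set, and the part of peak strength in this pattern was not tested.

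SMC-3 summits in HW04 lay at 39 and 39 members in the libraries labelled auxin (backgrounds 14.6% and 17.2%), against 35 and 34 in those labelled no auxin (backgrounds 10.9% and 10.8%). The means were 39.0 ± 0.0 and 34.5 ± 0.707 (SD, n = 2 each), with an exact permutation p of 0.333, and the groups did not overlap. rpl-11.1, rpl-19, rpl-26 and rpl-30 had a summit in both libraries labelled auxin and in neither labelled no auxin. The share of other genes with that pattern is not given here. By the conditions stated in the peak names the difference has the opposite sign, -4.5 in place of 4.5. The 5 members with no peak in the combined sets had none in any of the 4 SMC-3 lists either.

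H4K20me1, a histone mark that dosage compensation enriches on the worm X chromosomes, had summits at a minority of member starts. They lay at 6 and 6 members with auxin (backgrounds 4.99% and 5.28%), against 16 and 11 without (backgrounds 5.36% and 5.33%), with means of 6.0 ± 0.0 and 13.5 ± 3.54 (SD, n = 2 each) and an exact permutation p of 0.333. The groups did not overlap in count. The auxin libraries shared only 2 of these members, rpl-38 and rplp-1, and the libraries without auxin shared 9. Of the 44 members this is 13.6% in each auxin library, where other genes had 4.97% and 5.26%. Without auxin the summits lay at 16 of 44 members (36.4%) in replicate 1 and 11 of 44 in replicate 2. Other genes had 5.28% in each replicate without auxin. The 239 other genes with a mean count of at least 10000 had between 16.3% and 19.7% over the 4 libraries. The members' share was below that of these 239 genes in both auxin libraries and above it in both without auxin. These differences were not tested. rpl-8, rpl-30, rpl-32, rpl-35, rpl-36A and rpl-37A had the mark's summit in both libraries without auxin and in neither with it, and rpl-38 had it in all 4. The share of other genes with the same patterns is not given here. For rpl-37A the scores without auxin were 131 and 77, and for rpl-8 they were 130 and 93. The members' median scores with auxin were 38, against 47 over the list, in replicate 1 and 32.5, against 55 over the list, in replicate 2. Without auxin they were 80, against 49 over the list, in replicate 1 and 63, against 58 over the list, in replicate 2.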

How the data were processed

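RNA tables and peak lists were used as deposited. Of 21 lists, the authors combined 6 over replicates, called 1 from averaged reads and called 14 from 1 library each. The authors' deposited lists give each peak a score, a fold enrichment (ratio over input) and a −log10 q; their score is 10 times the −log10 q. Per the file headers, the authors' RNA tables give each gene's log2 fold change, its SE, the Wald statistic (a score), the p-value, the adjusted p-value and the mean normalized count (a normalized signal over the libraries of a fit). For RNA, DESeq2 1.30.0, HISAT2 2.2.1 and HTSeq 0.13.5 are named in the submitters' processing notes, and for ChIP-seq, MACS2 2.1.1 and Bowtie2 2.4.2. The notes state ce10 for 38 samples, the SMC-3 combined sets included, and no build for 45. Gene positions in the RNA tables differ from RefSeq WBcel235 by a median of up to 59.5 bp per chromosome, so only names and neighbours were taken by identifier. The combined SMC-3 and PQN-85 sets of WAPL-1 depletion are attached to other samples and were assigned by the library names in their peak names.

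A member had a peak when a summit lay within 500 bp of its start on its strand; of several, the highest score was kept. Called means the authors' adjusted p under 0.05. Counts of 2 HW04 libraries were set against 2 others by an exact permutation test, two-sided. Replicates are biological per the series' design text. Per-kilobase levels use gene span in place of the planned coding length, for which no annotation of the tables' build was used. Planned promoter and protein sequences are not shown. Named genes follow a rule: the 8 lowest and 5 highest members per RNA table, the 5 highest and 3 lowest levels, paralogue pairs, stalk genes, the 5 highest-scoring members per control set, members that kept an SMC-3 peak and members with a peak in 1 condition only; others named illustrate a role, a position or HW04. The members and lists were chosen with earlier results of these data known. Calculations used Python 3.11.15, pandas 2.3.3, numpy 2.4.6 and scipy 1.17.1, and the window and adjustment steps were tested on simulated data.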

Additional observations from a re-analysis of the deposited data

How the results depend on the processing

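A narrower window moved every count of the combined sets. Within 250 bp of the start, SMC-3 summits lay at 1 member in SMC-3 depletion, 13 in WAPL-1 depletion and 14 in control, and PQN-85 summits at 12, 15 and 11 members in the same order; the members' median summit lay farther out than that. A window of 1000 bp, an overlap of the peak with the window, or peaks in the upper part of the scores kept each of those counts within 1.5 times. In SMC-3 depletion 1 member, rpl-37A, passed at an adjusted p under 0.1, and the share of all genes that passed there is not given here. At an unadjusted p under 0.05, 33 members were lower and passed, against 3.66% of all genes. Set against other genes at a mean count of 10000 or more, a comparison chosen after seeing the data, the members' median log2 fold change was -0.23; the cause was not tested.

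For HW04, 2 against 2 libraries cannot pass the threshold at any setting, so the tests say nothing about stability and only values are given. The 250 bp window gave differences of 2.5 members for SMC-3, -8.5 for PQN-85 and -4.5 for H4K20me1, and the 1000 bp window 4.5, -22.5 and -13. The SMC-3 difference turned to -4.5 under the conditions in the peak names. Leaving out each replicate gave 4.0 to 5.0 members for SMC-3, -33 to -10 for PQN-85 and -10 to -5 for H4K20me1. Replicate numbers are shared by label only and 2 pairs are too few to check the pairing; with the replicate block the differences were 4.5, -21.5 and -7.5, each with an exact p of 0.5, the smallest 2 pairs can give. No paired analysis was possible because values per library were not given for the RNA tables and the combined sets. Depth is unknown, so a peak that is not listed may be a weak one.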

Other observations

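Other genes named as large subunit genes by RefSeq but outside the list had like values where they were well expressed. In SMC-3 depletion, by the authors' deposited table, the stalk gene rplp-2.1 had a log2 fold change of -0.71 (SE 0.28, adjusted p 0.354), rpl-27A one of -0.60 (SE 0.30) and rpl-37.1 one of -0.51 (SE 0.30). In the authors' deposited table rpl-42 and rpl-37.2 had mean normalized counts of 0.954 and 161 and wide errors. rpl-27A starts 1022 bp from rplp-1.

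In WAPL-1 depletion, fitted values of members moved with gene span and with level. Over the 44 members, log2 gene span and the log2 fold change of the authors' deposited table had a Pearson r of -0.605 and a Spearman rho of -0.51, and in SMC-3 depletion the values were 0.10 and 0.05. For log2 mean count and the log2 fold change of the authors' deposited tables, r was -0.48 and rho -0.51 in WAPL-1 depletion, and 0.21 and 0.15 in SMC-3 depletion. Log2 span and log2 mean count themselves had an r of 0.66 and a rho of 0.78 in the authors' deposited table of WAPL-1 depletion, so the 2 relations cannot be told apart. Both comparisons share the control libraries and the members share every library, so these are descriptions. The shortest member, rpl-39 with a span of 350 bp, had the highest value, 0.32, in the authors' deposited table. Tissue markers in WAPL-1 depletion had medians of 0.34 for 7 pharynx genes (7 above 0), -0.45 for 10 epidermis genes (between -0.69 and 0.69) and -0.50 for 8 moult genes in the authors' deposited table. The medians of the other marker lists were -0.01 for germline, 0.02 for intestine, -0.11 for body muscle and -0.07 for neurons in the authors' deposited table. No marker was called.

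By chromosome, 14 members lie on I, 8 each on II and IV, 7 on III, 5 on V and 2 on X. All genes number 2734 on I, 3168 on II, 2565 on III, 2995 on IV, 4504 on V and 2641 on X. The difference in spread was not tested. The members' median gene span is 840.5 bp, against 2132 bp over all genes.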
